A study of Mus musculus with 12 samples.

Results

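This report describes 10 AP-1 and immediate-early genes, *Fos*, *Fosb*, *Jun*, *Junb*, *Jund*, *Egr1*, *Atf3*, *Ier2*, *Dusp1* and *Zfp36*, in single-cell transcriptomes of a sorted T cell population of lupus-prone mice. They were chosen by gene symbol from the 18992 genes listed in 3 expression tables, and all 10 were listed in each table. The animals were NZB/W F1 mice, the hybrid offspring of the NZB and NZW strains, in which lupus nephritis arises with age, and the study's methods name females. PD-1+CD44+CD8+ T cells were sorted from 12-week-old spleen (12W spleen), from 28-week-old spleen (28W spleen) and from 28-week-old kidney (28W kidney), with no other genotype or treatment named. The labels list 4 samples for each group and do not say whether these are separate preparations or sequencing lanes of the same library. Each group's table pools them, and no file ties a cell to its sample, so each group is treated here as 1 library. Without replicates no difference has a test, and every interval covers counting error alone. How many mice stand behind a library is not stated. Kidneys were digested with warm collagenase, a step not described for spleen, so organ and preparation cannot be told apart. Each age of spleen is 1 library, so age cannot be told apart from the animals, sort, preparation or sequencing behind it. The age of the 28W spleen samples is taken from their titles, because their age field gives 12 weeks.

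The libraries held 6481 to 7135 cells, 29937384 to 34742303 transcripts counted by unique molecular identifier (UMI), and 10, 11 and 12 clusters (33 in all). A level is given as UMIs per 1000000 UMIs of the library or cluster (CPM). The authors made the clusters within each library from the same genes, so a cluster set against the other cells of its library is a description, and cluster numbers do not match between libraries. Genes of the sorted identity were detected in the transcripts, *Pdcd1* at a low level in some clusters. *Cd3e* and *Cd8a* were detected in every cluster, at no less than 260 and 143 CPM. *Pdcd1*, which encodes PD-1, was at 34.7 to 115 CPM over a library and at 5.36 CPM in its lowest cluster, cluster 6 of 12W spleen. *Cd44* was at 31.4 to 74.3 CPM over a library, and *Cd4* was at 0.345 to 3.94 CPM. Yet 8 clusters also carried markers of B cells, myeloid cells, erythroid cells or kidney tubule at no less than 5 times the level in the other cells: cluster 3 of 12W spleen, clusters 8 and 10 of 28W spleen, and clusters 2, 7, 8, 11 and 12 of 28W kidney. These clusters held 15.4% of the 12W spleen cells, 9.61% of the 28W spleen cells and 34.6% of the kidney cells. Between 52 and 66 cell barcodes were shared by each pair of libraries. Fewer cells that express a gene and less RNA per cell cannot be told apart in these pooled levels.

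Immediate-early genes are transcribed within minutes of a stimulus without new protein synthesis. In T cells, signals from the T cell receptor reach them through MAP kinases, calcium and the factors SRF and CREB. Fos and Jun proteins pair to form AP-1, which works with NFAT at genes of activation and effector function. Several of these messages are unstable, and some of their products, such as the phosphatase DUSP1 and the RNA-binding protein ZFP36, shut the response down.

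*Fos* lies on chromosome 12 (GRCm38, chr12:85473890-85477273, plus strand) and *Junb* on chromosome 8 (chr8:84974484-84978718, minus strand) in the GENCODE annotation. *Jun*, *Junb*, *Jund* and *Ier2* have transcripts of 1 exon. Whether counting used strand is not given in the sources used here, and 6 of the 10 genes overlap another annotated gene on the opposite strand. *Junb* overlaps *Prdx2* and *Dusp1* overlaps *Ergic1*, both protein-coding, so some of their reads could have been shared.

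RefSeq promoter windows (GRCm38.p6, 250 bases before to 50 bases after the start) were used for 8 of the 10 genes, all but *Egr1* and *Ier2*. The RefSeq starts are not all at the end of the gene in the GENCODE annotation. The *Jund* window (chr8:70697489-70697788) ends before that gene's annotated start (70698949). The *Atf3*, *Dusp1* and *Zfp36* windows lie inside the annotated gene, and that of *Zfp36* begins in an exon. The motif counts below include these windows. Stretches before the RefSeq start are shown for *Fos*, *Fosb*, *Junb* and *Dusp1*. These are the genes higher with age that hold a match to a CREB-type motif. A stretch stops where an annotated exon of the same gene begins, and that of *Dusp1* lies inside the annotated gene. Each is written 5′ to 3′ on the gene's own strand at chr12:85473640-85473889, chr7:19310052-19310295, chr8:84978749-84978998 and chr17:26508520-26508722, the first on the plus and the others on the minus strand. Capitals mark a cAMP response element (CRE, TGACGTCA), its short core TGACG, or an EGR site (GCGNGGGCG).
Fos: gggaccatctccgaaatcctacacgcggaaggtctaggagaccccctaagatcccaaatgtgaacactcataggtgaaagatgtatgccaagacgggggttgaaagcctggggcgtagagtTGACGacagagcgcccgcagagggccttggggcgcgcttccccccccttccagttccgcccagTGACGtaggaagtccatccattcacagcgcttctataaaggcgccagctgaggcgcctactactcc
Fosb: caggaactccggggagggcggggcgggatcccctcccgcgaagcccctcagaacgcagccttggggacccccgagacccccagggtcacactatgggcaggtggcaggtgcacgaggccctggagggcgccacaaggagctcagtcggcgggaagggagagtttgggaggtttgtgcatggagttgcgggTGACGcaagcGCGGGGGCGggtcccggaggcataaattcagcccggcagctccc
Junb: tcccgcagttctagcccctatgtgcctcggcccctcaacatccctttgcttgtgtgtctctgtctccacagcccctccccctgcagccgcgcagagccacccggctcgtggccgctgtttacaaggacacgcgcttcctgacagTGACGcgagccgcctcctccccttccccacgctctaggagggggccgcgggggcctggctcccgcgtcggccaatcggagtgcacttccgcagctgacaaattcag
Dusp1: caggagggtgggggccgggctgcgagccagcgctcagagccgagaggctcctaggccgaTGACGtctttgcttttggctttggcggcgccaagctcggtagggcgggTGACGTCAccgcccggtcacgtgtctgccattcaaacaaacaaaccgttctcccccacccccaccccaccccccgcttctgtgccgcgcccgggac
The *Fos* stretch holds the core 2 times, 129 and 66 bases before the RefSeq start. The *Dusp1* stretch holds a whole CRE 143 bases before its RefSeq start. On both strands, the core was found in 5 of the 8 windows (those of *Fos*, *Fosb*, *Junb*, *Atf3* and *Dusp1*) and in 20.8% of all 32817 windows. Every whole CRE also contains the core. The CRE itself was found in 1 of 8 windows (*Dusp1*; 1.79% of all), an EGR site in 2 (*Fosb* and *Zfp36*; 5.56% of all) and a CArG box, the SRF element, in 1 (*Zfp36*; 1.63% of all). The AP-1 site TGACTCA was in 0 of 8 windows, against 5.20% of all windows. These are matches of letters, not measured binding, and the core was searched for after the windows had been seen.

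With age, 6 of the 10 genes were at least 2-fold higher in 28W spleen than in 12W spleen and 0 were at least 2-fold lower. The 6 were *Fos*, *Fosb*, *Jun*, *Junb*, *Dusp1* and *Zfp36*, and the median log2 ratio of the 10 genes was 1.21 on the log2(CPM + 1) scale. Of the 8919 genes that reached 5 CPM in 12W or 28W spleen, 1.85% were at least 2-fold higher and 0.953% at least 2-fold lower, and their median log2 ratio was -0.10. *Atf3* was under 5 CPM in both libraries and is not among those tested genes. The 6 genes were each still at least 2-fold higher when any 1 of the 21 spleen clusters was left out, with *Jun* nearest the limit (log2 ratio 1.02 without cluster 7 of 12W spleen). *Jun* did not reach 2-fold when each cluster weighed the same (0.80) or when the deposited means were averaged over cells (0.89).

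**Figure D1:**
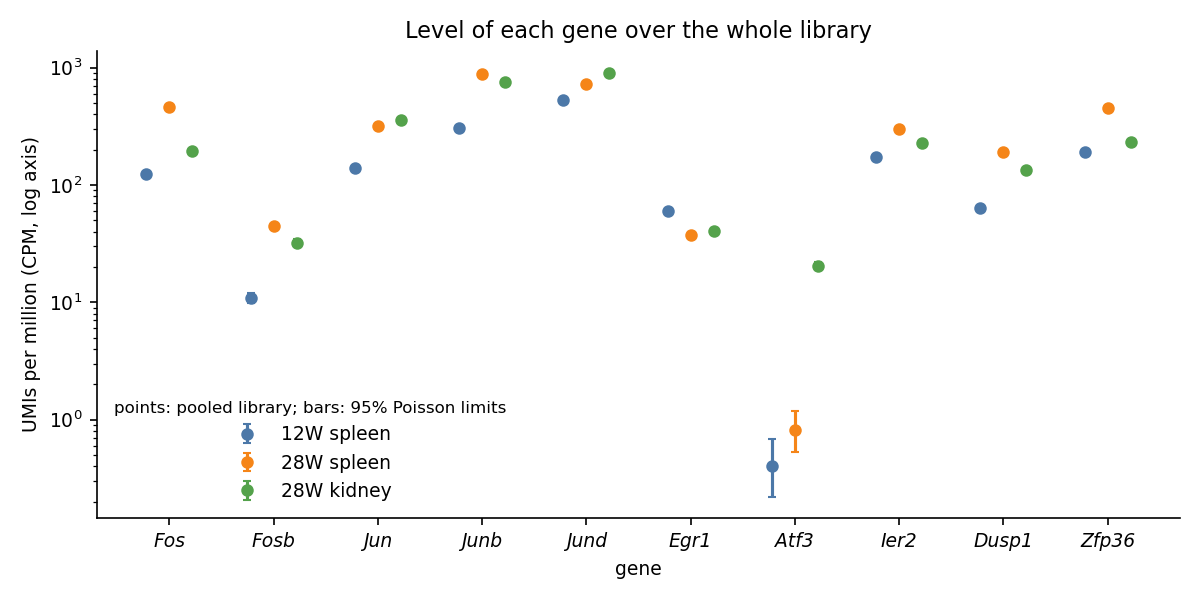
Level of each gene in the 3 pooled libraries, in CPM on a log axis, with bars for 95% Poisson limits of counting error. *Fos*, *Fosb*, *Junb*, *Ier2*, *Dusp1* and *Zfp36* sit highest in 28W spleen, *Jun*, *Jund* and *Atf3* in 28W kidney, and *Egr1* in 12W spleen.

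*Fos*, the AP-1 partner induced fastest and most transiently, was at 123 CPM in 12W spleen (4272 UMIs, 95% limits 119 to 127), 459 CPM in 28W spleen (14703 UMIs, 452 to 467) and 196 CPM in 28W kidney (5856 UMIs, 191 to 201). It was 3.73-fold higher in 28W than in 12W spleen (95% counting interval 3.61 to 3.86). Across clusters it was at 37.9 to 463 CPM at 12 weeks (median 119) and at 218 to 887 CPM in spleen at 28 weeks (median 449). Apart from cluster 8 of 12W spleen, no 12W cluster (at most 209 CPM) reached the lowest 28W cluster. *Fosb*, a close paralog of *Fos*, was at 10.9 CPM in 12W spleen, 44.4 CPM in 28W spleen and 32.3 CPM in 28W kidney, 4.06-fold higher with age (3.63 to 4.56). Its cluster levels ranged from 5.82 to 176 CPM at 12 weeks and from 18.2 to 383 CPM in spleen at 28 weeks, and the highest cluster stood far above the next in both spleen libraries (18.1 and 70.1 CPM).

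*Junb*, the Jun family member that the study names among the signature genes of a subset of these same cells, was at 309 CPM in 12W spleen, 884 CPM in 28W spleen and 757 CPM in 28W kidney. It was 2.86-fold higher with age (2.80 to 2.93), with cluster levels of 155 to 811 CPM at 12 weeks and 390 to 1538 CPM in spleen at 28 weeks. *Jun*, which encodes c-Jun, was at 141, 320 and 358 CPM in the same order of libraries and 2.27-fold higher with age (2.20 to 2.35). Its levels ran from 42.5 to 920 CPM over the 12W clusters and from 157 to 885 over the 28W spleen clusters, so the ranges of both Jun genes overlapped between ages. *Jund*, the Jun gene that resting cells express at a steady level, differed least of the 5 AP-1 genes. It was at 527 CPM in the younger and 725 CPM in the older spleen and at 909 CPM in kidney, a 1.37-fold difference with age (1.35 to 1.40).

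*Egr1*, a zinc-finger factor induced by T cell receptor signals, was the 1 gene lower with age. It was at 59.8 CPM in 12W spleen (2077 UMIs), 37.7 CPM in 28W spleen (1206 UMIs) and 40.9 CPM in 28W kidney (1223 UMIs), and its level at 12 weeks was 1.59-fold that at 28 weeks in spleen (1.48 to 1.71). Cluster levels overlapped, at 19.6 to 95.7 CPM at 12 weeks and 22.8 to 101 CPM in spleen at 28 weeks. *Ier2*, an early nuclear protein, was at 175 CPM, 298 CPM and 229 CPM in the same order of libraries, 1.70-fold higher with age (1.65 to 1.76). *Atf3*, a stress-induced member of the ATF/CREB family, was nearly absent from spleen, with 14 UMIs (0.403 CPM) at 12 weeks and 26 UMIs (0.812 CPM) at 28 weeks. Of those 26 UMIs 15 were in cluster 10, which carried B cell and myeloid markers, and without that cluster the log2 ratio with age was -0.05 in place of 0.37.

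The feedback inhibitors were also higher with age. *Dusp1*, which dephosphorylates MAP kinases, was at 63.6 CPM in 12W spleen, 192 CPM in 28W spleen and 135 CPM in 28W kidney, 3.01-fold higher with age (2.87 to 3.17). *Zfp36*, which encodes tristetraprolin, a protein that destabilises cytokine mRNAs, was at 192, 455 and 231 CPM, 2.37-fold higher with age (2.30 to 2.44). For *Dusp1* the 12W clusters reached 113 CPM apart from cluster 8 (147 CPM), against a lowest 28W cluster of 119 CPM. For *Zfp36* the 12W clusters reached 286 CPM, above cluster 6 of 28W spleen (218 CPM) and below all its other clusters (408 CPM or more).

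The organ comparison set 28W kidney against the same 28W spleen library, so the age and organ comparisons share a library and are not independent. Over whole libraries 1 of the 10 genes was at least 2-fold higher in kidney (*Atf3*) and 1 at least 2-fold lower (*Fos*), and the median log2 ratio was -0.30. Of the 9274 genes tested 6.41% were at least 2-fold higher and 1.43% at least 2-fold lower, with a median of 0.08. *Atf3* was 25.0-fold higher in kidney (20.3 CPM, 608 UMIs; interval 16.9 to 38.6), or 3.56 on the log2(CPM + 1) scale. The spleen level of *Fos* was 2.35-fold the kidney level (2.28 to 2.42) and that of *Zfp36* 1.97-fold (1.91 to 2.03). The log2 ratio was -0.50 for *Dusp1*, -0.45 for *Fosb*, -0.38 for *Ier2* and -0.22 for *Junb*. It was 0.33 for *Jund*, 0.16 for *Jun* and 0.11 for *Egr1*, where the interval of the *Egr1* log2 ratio began at 0.0014.

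A single kidney cluster, cluster 8, held much of this expression. Its 544 cells were 7.62% of the kidney cells and 9.36% of the kidney UMIs, with 5151 UMIs per cell. They held 73.0% of the library's *Atf3* UMIs, 70.3% of *Fosb*, 55.8% of *Junb*, 51.0% of *Egr1*, 37.9% of *Ier2*, 36.4% of *Dusp1*, 31.8% of *Zfp36*, 30.5% of *Fos* and 30.2% of *Jund*. *Jun* was the least concentrated, with 18.2%. *Junb* was at 4515 CPM in cluster 8 and at 836 CPM in the next highest kidney cluster, and *Fosb* at 243 against 37.2 CPM. *Atf3* was at 158 CPM there and at 79.9 CPM in cluster 12, with 0.783 to 16.2 CPM in the other 10 kidney clusters. *Egr1* was at 223, *Ier2* at 926, *Dusp1* at 526, *Zfp36* at 785, *Fos* at 637 and *Jund* at 2929 CPM, each the highest of the 12 kidney clusters. *Jun*, at 696 CPM in cluster 8, was highest in cluster 2 instead (851 CPM).

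**Figure D2:**
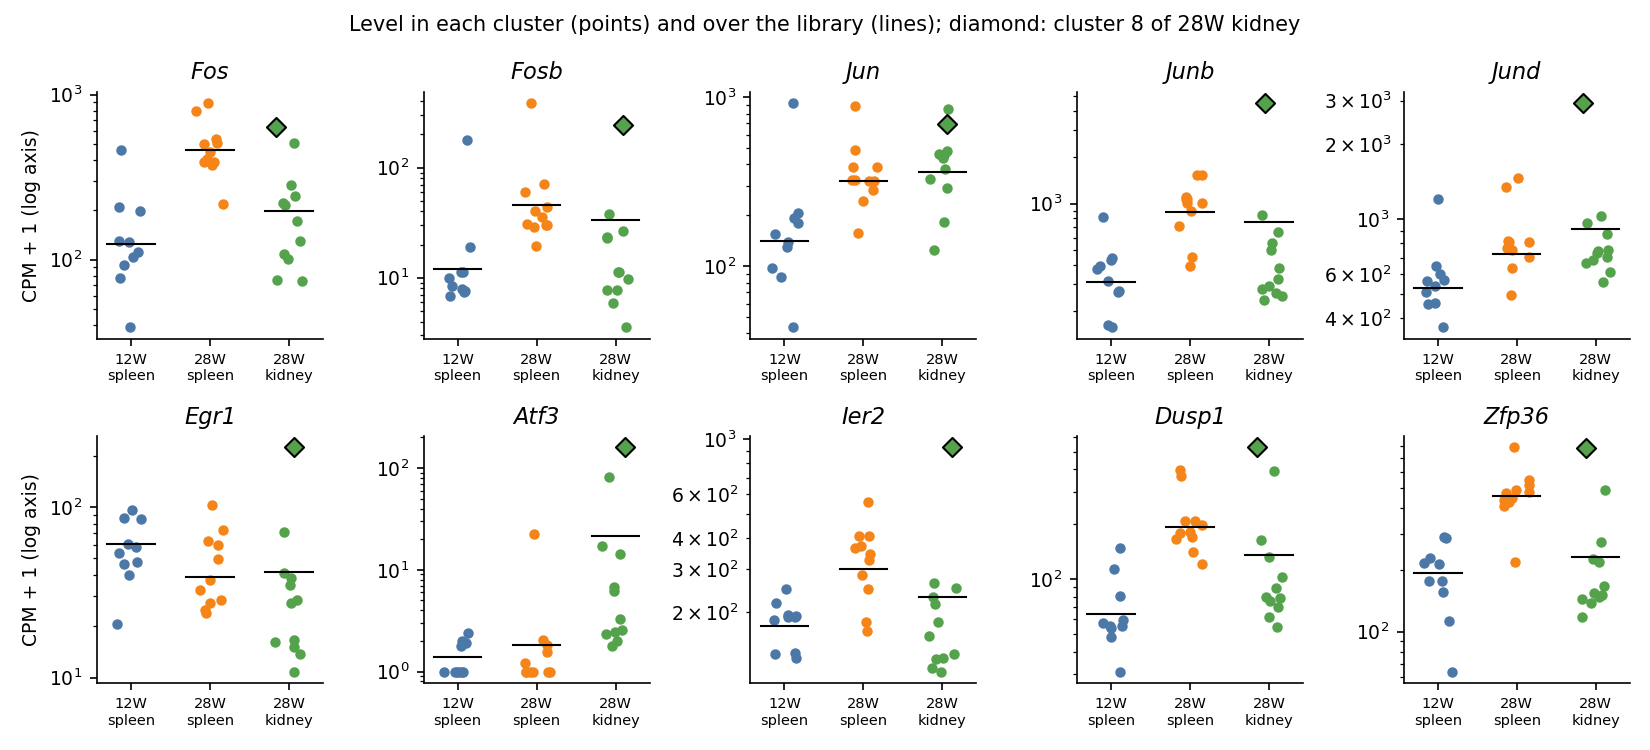
Level of each gene in each of the 33 clusters (points, CPM + 1 on a log axis), with lines for the whole library and a diamond for cluster 8 of 28W kidney. The diamond is the highest kidney point for all genes but *Jun*, and stands apart most for *Junb* (4515 CPM against 836 in the next cluster) and *Fosb* (243 against 37.2).

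Against the other kidney cells, all 10 genes were at least 2-fold higher in cluster 8 on the log2(CPM + 10) scale, where 4.39% of 9470 tested genes were. The median log2 fold of the 10 genes was 2.42, from 1.08 (*Jun*) to 3.62 (*Fosb*), against a median of -0.22 over the tested genes. Other early genes were high in the same cluster. *Nr4a1*, an orphan nuclear receptor induced by antigen receptor signals, was at 733 CPM in cluster 8 and 22.8 in the other kidney cells, *Klf4* at 392 against 9.10, *Csrnp1* at 400 against 17.8 and *Nr4a3* at 190 against 7.74. Of the 19 other immediate-early genes counted, 14 were at least 2-fold higher there and 0 at least 2-fold lower. Of 6 other MAP kinase phosphatases 5 were higher, led by *Dusp5* (294 against 22.4 CPM), whereas of 13 upstream kinases and factors 1 was (*Crem*, 44.2 against 15.0 CPM). Among other AP-1 and related factors *Maff* (118 against 2.03 CPM), *Fosl2* (87.8 against 9.66) and *Mafk* (42.5 against 6.78) were at least 2-fold higher and *Maf* at least 2-fold lower (13.6 against 39.6). *Zfp36l1* (639 against 188 CPM) was higher among the relatives of *Zfp36* and the cytokine mRNAs, while *Ifng* was at 96.0 against 83.9 and *Tnf* at 76.7 against 62.2 CPM.

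The same cluster carried B cell markers. All 6 genes of the B cell list were higher in it than in the other kidney cells, among them *Cd79a* (1074 against 12.8 CPM) and *Ms4a1* (225 against 1.25). Their summed level was 1914 CPM in cluster 8 and 11.9 to 168 CPM in the other kidney clusters. All 6 T cell markers were lower but present, *Cd3e* at 613 against 1377 CPM and *Cd8a* at 168 against 797, and *Pdcd1* was at its lowest kidney level there (24.6 CPM). All 8 myeloid and all 6 kidney tubule markers were lower than in the other kidney cells. Mitochondrial genes gave 0.830% of its UMIs, against 1.19% in the other kidney cells. Whether its barcodes hold B cells, T cells or droplets with both cannot be told from cluster sums, and the part of the B cell signal in these levels was not tested. Cluster 10 of 28W spleen, which also carried B cell markers (2789 CPM summed, with a T cell level of 1123 CPM), had 3 of the 10 genes higher than the other cells of its library and 7 lower (median log2 fold -0.07). There 2 of them were at least 2-fold higher, against 7.23% of tested genes, and the median over tested genes was -0.16. *Egr1* (101 CPM) and *Atf3* (21.7 CPM) had their highest level of the 28W spleen clusters there, and *Junb* was at 450 CPM, under its library's 884. In cluster 3 of 12W spleen, marked by erythroid, myeloid and B cell genes, 8 of the 10 were higher than in the other cells (median 0.42). Of these, 0 were at least 2-fold higher, against 1.97% of tested genes, and the median over tested genes was -0.04.

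Without cluster 8, an alternative chosen after seeing the data, the organ comparison changed for most of the genes. The number at least 2-fold lower in kidney went from 1 to 5 (*Fos*, *Fosb*, *Junb*, *Dusp1* and *Zfp36*), with 1.89% of 9291 tested genes called lower, and *Atf3* remained the 1 gene at least 2-fold higher (6.43% called higher). The median log2 ratio was -0.96. The spleen level was then 4.20-fold the kidney level for *Fosb* (10.6 CPM in kidney, interval 3.70 to 4.79), 3.06-fold for *Fos* (150 CPM, 2.95 to 3.17), 2.62-fold for *Zfp36* (174 CPM, 2.53 to 2.71), 2.39-fold for *Junb* (369 CPM, 2.34 to 2.45) and 2.02-fold for *Dusp1* (94.9 CPM, 1.93 to 2.12). *Egr1* turned from 0.11 to -0.74. *Jund* turned from 0.33 to -0.05, and *Jun* stood at 0.02 with an interval of its ratio from 0.983 to 1.04. *Atf3* was still 7.44-fold higher in kidney (6.04 CPM, 4.90 to 11.7), and 83 of its remaining UMIs were in cluster 12, which carried myeloid markers. Without all 8 clusters marked by other cell types, 5 genes were at least 2-fold lower (2.86% of 8893 tested genes), and 0 of the 9 genes then tested were at least 2-fold higher (2.67% of them). *Atf3*, at 2.04 CPM in kidney, was then under the minimum level.

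**Figure D3:**
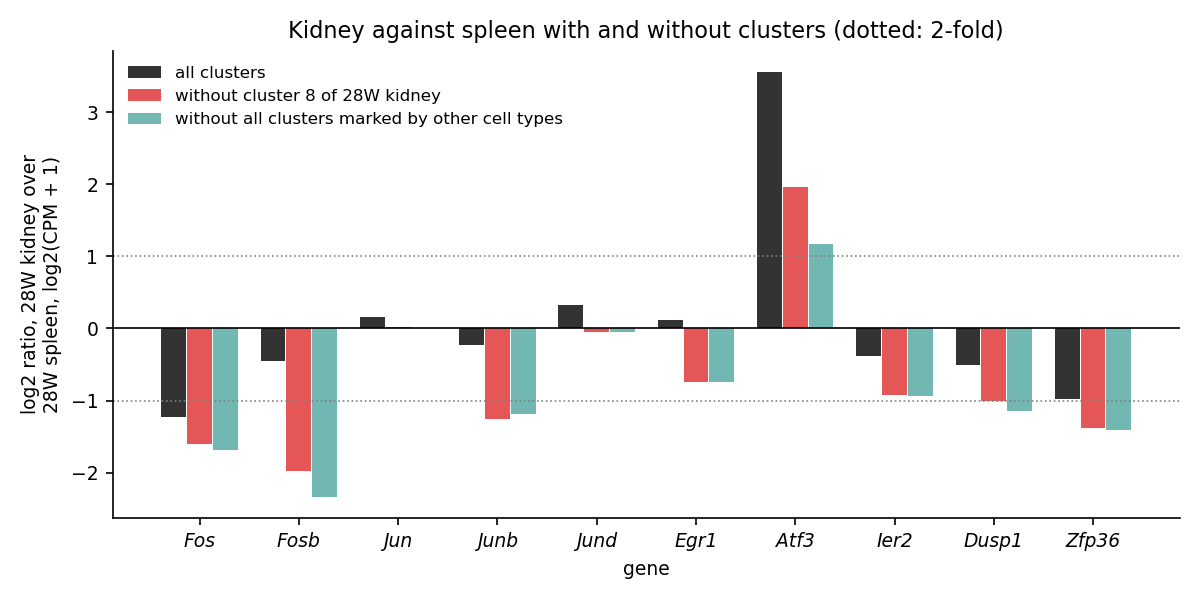
Log2 ratio of 28W kidney over 28W spleen, log2(CPM + 1), for each gene with all clusters, without cluster 8 of 28W kidney and without all clusters marked by other cell types, with dotted lines at 2-fold. Without cluster 8, *Junb* goes from -0.22 to -1.26 and *Fosb* from -0.45 to -1.97, while *Jun* stays close to 0.

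Outside cluster 8, kidney levels still differed between clusters. Cluster 12, with myeloid markers and a T cell level of 1370 CPM, had the next highest *Fos* (510 CPM), *Dusp1* (393 CPM), *Zfp36* (489 CPM) and *Atf3*. Cluster 9, with no mark of another cell type, had *Junb* at 836 CPM, and clusters 1, 3, 4 and 6, which had T cell levels of 6885 to 8594 CPM, had *Junb* at 250 to 323 CPM and *Fosb* at 2.54 to 6.73 CPM. Lowest of all, by the median of the 10 genes, were cluster 1 (median log2 fold -1.26) and cluster 11 (-1.24), measured against other kidney cells that include cluster 8. With cluster 8 left out of the other cells these medians were -0.66 and -0.62, and that of cluster 12 was 1.07 in place of 0.51. In cluster 11, which had 11404 UMIs per cell, 8 of the 10 genes were at least 2-fold lower than in all other kidney cells, against 3.47% of tested genes. Without cluster 8 in the comparison 2 were, *Jun* (-1.47) and *Fos* (-1.04), against 2.89% of tested genes.

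In 28W spleen, clusters 3, 9 and 11 stood highest. Cluster 3 had *Fos* at 887 CPM, *Zfp36* at 787 and *Dusp1* at 366, against library levels of 459, 455 and 192, with *Junb* at 1070.4 CPM against its library's 884. Cluster 9 showed another mix, with *Junb* at 1532, *Jund* at 1463 and *Ier2* at 559 CPM but *Fosb* at 29.8, under its library level. Cluster 11, with 1288 UMIs per cell and 6.64% mitochondrial UMIs, had *Fosb* at 383, *Jun* at 885 and *Junb* at 1538 CPM. There 3 of the 10 genes were at least 2-fold higher than in the other cells, but so were 25.1% of all tested genes. Cluster 8 of 12W spleen was alike, with 928 UMIs per cell, 8.98% mitochondrial UMIs, *Fosb* at 176, *Jun* at 920 and *Fos* at 463 CPM, and 6 genes at least 2-fold higher against 32.0% of tested genes. In cluster 11 of 28W spleen the count, 3 of 9 tested, was near the share of all tested genes. In cluster 8 of 12W spleen, with 6 of 9 tested, it was above that share. Many genes stood high at once in both clusters. Other clusters of low depth had fewer such genes. In cluster 8 of 28W spleen, with 1020 UMIs per cell, 2.20% of tested genes were at least 2-fold higher. In cluster 2 of 28W kidney, with 1200 UMIs per cell and 10.8% mitochondrial UMIs, 7.14% were. The part of depth in these shares was not tested. At the other end stood some clusters with many UMIs per cell. In cluster 7 of 12W spleen, with 13406 UMIs per cell and a heat shock chaperone level of 19047 CPM, 4 genes were at least 2-fold lower (9.52% of tested genes). In cluster 6 of 28W spleen, with 12208 UMIs per cell, 4 were (2.27% of tested genes). Other immediate-early genes in these clusters went both ways. In cluster 7 of 12W spleen 6 of 18 counted were at least 2-fold higher (8.76% of tested genes), with *Myc* and *Nr4a1* highest. Another 3 were at least 2-fold lower. In cluster 6 of 28W spleen 2 of 17 were at least 2-fold higher (5.57% of tested genes), *Nr4a1* and *Myc*, and 3 at least 2-fold lower. In the deepest cluster, cluster 10 of 12W spleen with 14345 UMIs per cell, all 10 were lower (median log2 fold -0.49) but 0 by 2-fold (0.962% of tested genes).

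**Figure D4:**
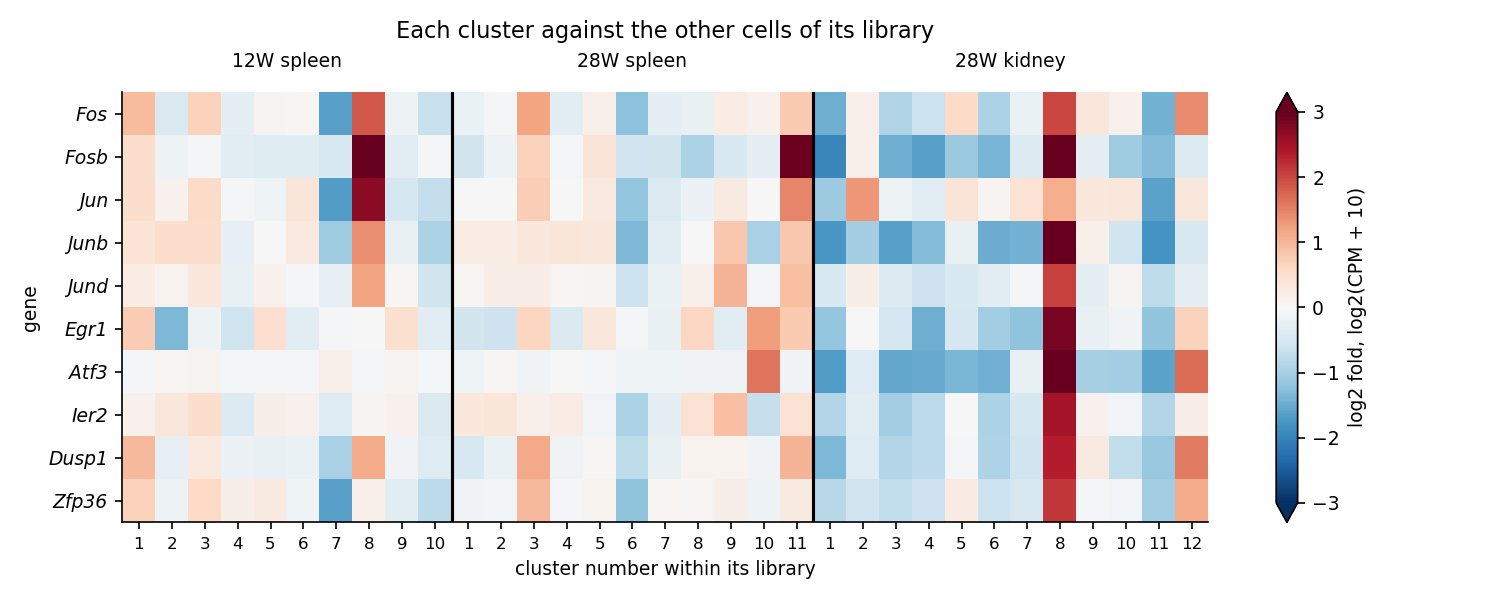
Log2 fold of each gene (rows) in each cluster (columns) over the other cells of its library, log2(CPM + 10), with red for higher and blue for lower. Cluster 8 of 28W kidney is red for all 10 genes (1.08 to 3.62). Clusters 1, 3, 4 and 11 of 28W kidney are below 0 for all 10, against other cells that include cluster 8. Cluster 6 of 28W spleen and cluster 10 of 12W spleen are also below 0 for all 10.

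Across the 33 clusters the genes followed the depth of the cells to different degrees. Spearman's rho of a gene's level, centred within library, with log2 UMIs per cell ran from -0.64 (*Jund*) to -0.08 (*Atf3*) and was negative for all 10 genes. With the mitochondrial share it ran from 0.20 (*Ier2*) to 0.58 (*Jund*), and with the heat shock chaperone level from -0.50 (*Jun*) to -0.02 (*Ier2*). The clusters of a library share its cells, preparation and sequencing, and the part of depth in the cluster differences was not tested.

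**Figure D5:**
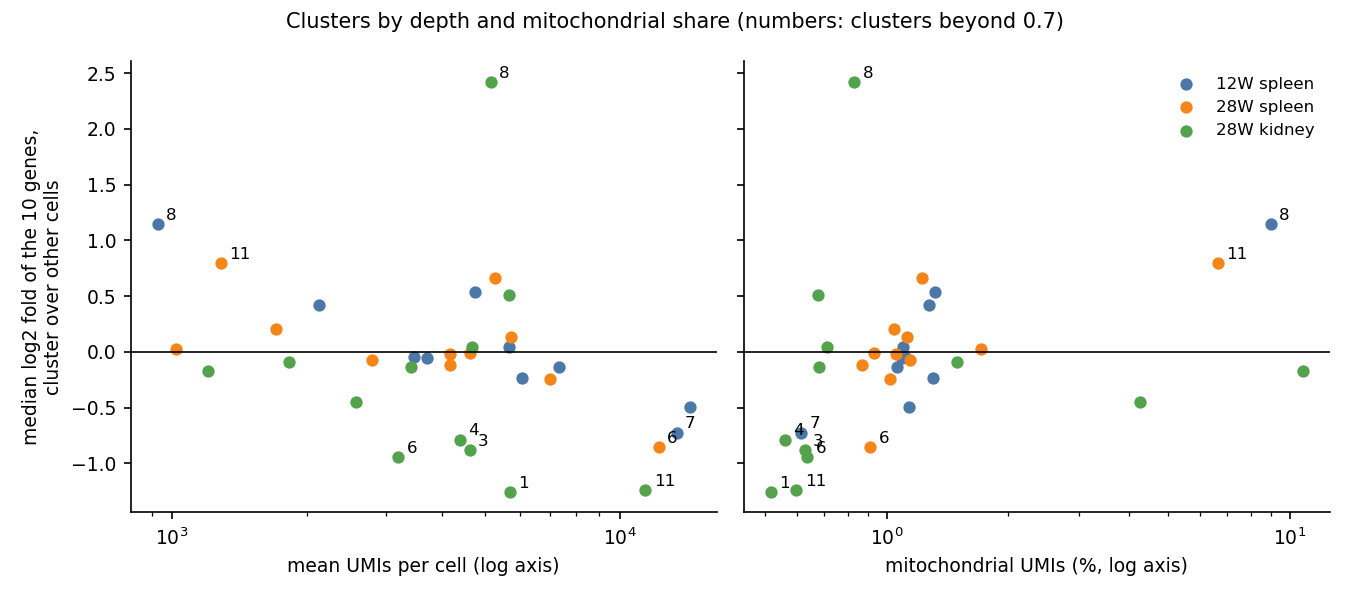
Median log2 fold of the 10 genes in each cluster over the other cells of its library, against mean UMIs per cell (left) and mitochondrial share of UMIs (right), both on log axes. Cluster 8 of 28W kidney stands at 2.42 with 5151 UMIs per cell and 0.830% mitochondrial UMIs, while cluster 8 of 12W spleen (1.15) and cluster 11 of 28W spleen (0.80) stand at low depth and a high mitochondrial share.

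The 10 genes tended to move together between clusters. Over 33 clusters, with levels as log2(CPM + 10) centred within library, all 45 pairs were positively correlated, with a median Pearson r of 0.68. The closest pairs were *Junb* with *Ier2* (0.92) and *Fos* with *Dusp1* (0.92), and the loosest was *Jun* with *Atf3* (0.26). Without cluster 8 of 28W kidney the median was 0.58 and all 45 pairs were still positive, from 0.07 (*Junb* with *Atf3*) to 0.91 (*Fos* with *Dusp1*). Among 3017 genes with at least 50 CPM in any library, the 5 whose cluster pattern was most like the mean of the 10 were *Ppp1r15a* (r = 0.88), which encodes GADD34, a phosphatase subunit of the stress response, *Nfkbia* (0.88), which encodes the NF-κB inhibitor IκBα, *Ier5* (0.87), another immediate-early gene, *Ifrd1* (0.83) and *Vps37b* (0.83). *Nfkbia* was at 2304 CPM in cluster 8 of 28W kidney and 351 in the other kidney cells. Without that cluster the 5 were *Ppp1r15a* (0.81), *Ier5* (0.80), *Klf3* (0.80), *Klhl24* (0.79) and *Nfkbia* (0.78).

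Related genes from fixed lists showed which neighbours of the pathway differed with age. All ratios in these lists are log2 ratios on the log2(CPM + 1) scale for genes that reached 5 CPM in 1 of the compared libraries. Of 20 other immediate-early genes 17 were counted (median 0.46), of which 3 were at least 2-fold higher in 28W spleen, *Klf6* (1.98), *Klf4* (1.79) and *Ppp1r15a* (1.52), and 1 at least 2-fold lower, *Nr4a1* (-1.42), followed by *Myc* (-0.94) and *Egr2* (-0.84). Of 13 other AP-1 and related factors 8 were counted (median 0.23) and 0 passed 2-fold, with *Maf* (0.99), *Batf* (0.55) and *Atf4* (0.41) highest and *Mafg* (-0.22), *Atf7* (-0.17) and *Atf2* (-0.04) lowest. All 13 upstream kinases and factors were counted and lay between *Elk1* (-0.23), *Elk4* (-0.23) and *Mapk8* (-0.21) at the low end and *Mkl1* (0.19), *Crem* (0.16) and *Srf* (0.14) at the high end. The 4 other MAP kinase phosphatases counted were *Dusp2* (0.32), *Dusp5* (-0.07), *Dusp10* (-0.24) and *Dusp6* (-0.30). Among the *Zfp36* family and AU-rich cytokine mRNAs, *Ifng* (2.55) and *Tnf* (1.01) were at least 2-fold higher, and *Zfp36l2* (0.54) and *Zfp36l1* (0.15) were not. Among 10 heat shock chaperones *Hspa1a* (2.83), *Hspa1b* (2.61) and *Dnajb1* (0.80) were highest and *Hspd1* (-0.56), *Hspe1* (-0.41) and *Hsp90ab1* (-0.18) lowest. *Hspa1a* and *Hspa1b* are near-identical copies whose reads can be split between them.

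The same lists in the organ comparison were led by other genes. The inducible chaperones *Hspa1a* (4.69, at 24.9 CPM in spleen and 670 CPM in kidney) and *Hspa1b* (3.45) were the farthest apart, with *Dnajb1* at 0.68 and *Hspd1* (-0.41), *Hspe1* (-0.35) and *Hsp90ab1* (-0.08) lowest. *Hspa1a* was lower in cluster 8 of 28W kidney (90.6 CPM) than in the other kidney cells (730), whereas the 10 genes were higher there. The chaperone list as a whole differed little in that cluster. Its median log2 fold was -0.10 on the log2(CPM + 10) scale, with 2 of 10 at least 2-fold lower and 0 at least 2-fold higher. Of the other immediate-early genes 18 were counted (median 0.38), 4 at least 2-fold higher and 1 at least 2-fold lower, with *Sik1* (1.84), *Nr4a1* (1.82) and *Csrnp1* (1.61) highest and *Egr2* (-1.05), *Myc* (-0.90) and *Klf6* (-0.72) lowest. Without cluster 8 their median was -0.25, 0 were at least 2-fold higher and 3 at least 2-fold lower, and *Nr4a1* was at -0.10. Among other AP-1 and related factors *Maff* (2.77), *Maf* (2.04) and *Fosl2* (1.18) were at least 2-fold higher in kidney, and *Atf4* (-0.11), *Atf2* (-0.02) and *Batf* (0.06) were lowest. Without cluster 8 *Fosl2* was at 0.43, and *Maff*, at 2.03 CPM, fell below the minimum level. Among phosphatases *Dusp5* (2.10) and *Dusp4* (1.72) were at least 2-fold higher, with *Dusp10* at 0.74, *Dusp6* at 0.57 and *Dusp2* at -0.05. Without cluster 8 *Dusp5* was at 1.04 and *Dusp4*, at 0.93, no longer reached 2-fold. Among upstream kinases and factors 1 passed 2-fold, *Crem* (1.13, and 0.90 without cluster 8), followed by *Mapk3* (0.77) and *Mapkapk2* (0.31), with *Mkl1* (-0.42), *Mapk8* (-0.20) and *Elk3* (-0.16) lowest. *Il2* (1.48, at 6.51 CPM in kidney), *Tnf* (0.96) and *Ifng* (0.41) were higher in kidney, and *Zfp36l1* (-0.20) and *Zfp36l2* (-0.42) were lower.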

How the data were processed

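Single-cell 5′ v2 libraries (10x Genomics) of sorted PD-1+CD44+CD8+ T cells were analysed from the deposited tables. The processing notes in the labels name Cell Ranger 2.1.1, R 3.6.1 and the build GRCm38, and the annotation release and cell filters are not given in the sources used here. For each group the authors deposited a list that assigns every cell barcode to a cluster, and a table of scaled mean UMIs per gene and cluster. Log2 fold changes and adjusted p-values of the authors' own cluster comparisons are in the same tables and were not used. Each column's values were whole multiples of the value of 1 UMI (100% within a tolerance of 0.001), so UMIs were recovered and summed over clusters. Groups were taken from sample titles. For 28W spleen the field for age gives 12 weeks and the title 28, and the title was used.

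Levels are UMIs per 1000000 (CPM), with a pseudocount of 1 CPM between libraries and 10 CPM between clusters. Genes that reached 5 CPM in 1 of the libraries or groups of cells compared were counted, and a gene was called at a fold of 2 or more. Intervals are exact 95% Poisson limits and exact intervals for the ratio of 2 Poisson counts, which were tested on simulated counts. A cluster was called marked where a list of B cell, myeloid, kidney tubule or erythroid markers summed to at least 200 CPM and 5 times the level in the other cells, and mitochondria-rich at 1.5 times their mitochondrial share. A library total of 0 UMIs would allow a level of up to 0.0864 to 0.100 CPM (3 counts). The 10 genes, the 6 pathway lists and the marker lists were chosen with earlier results of these data known. The rule for named genes took all 10, the 3 genes of each pathway list with the highest and the 3 with the lowest log2 ratio per comparison, and the 5 genes most alike over clusters. Genes described in cluster 8 of 28W kidney beyond that rule were chosen after their values were seen. Places came from GENCODE M21 and promoter sequences from RefSeq (GRCm38.p6). Python 3.11.15, numpy 2.4.6, pandas 2.3.3, scipy 1.17.1 and matplotlib 3.10.9 were used. Doublets could not be called from cluster sums. Alternatives were another pseudocount, other scalings, cluster weights and left-out clusters.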

Additional observations from a re-analysis of the deposited data

How the results depend on the processing

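No paired analysis was possible because the tables pool the 4 samples of a group, so same-numbered samples have no values of their own, and no sample could be left out. The direction of the age median held under every alternative run, with 1.17 at a pseudocount of 10 CPM and 1.02 when the deposited means were averaged over cells. The number of genes at least 2-fold higher with age was 5 from deposited means, without *Jun*, and 6 with equal cluster weights, with *Atf3* (1.19) in place of *Jun*. With equal weights *Atf3* was at 2.21 CPM in 28W spleen and 0.404 CPM in 12W spleen. Both are under the minimum level of 5 CPM, so it was not a tested gene there. The organ median, -0.30, was -0.38 scaled by the median gene ratio, -0.46 with totals without T cell receptor, immunoglobulin, mitochondrial and ribosomal genes, -0.24 without mitochondria-rich clusters, -0.43 with each cluster weighing the same, -0.52 from deposited means and -0.43 without clusters of at least 12000 or fewer than 1500 UMIs per cell. It was -1.04 without marked clusters, -0.96 without cluster 8 of 28W kidney and -1.03 without marked and mitochondria-rich clusters. The number of genes at least 2-fold lower in kidney was 5 under these last 3 settings and 2 with median scaling, reduced totals, equal cluster weights, deposited means or the depth limits. The share of all tested genes lower in kidney was 1.43% with all clusters, 1.89% without cluster 8 and 2.86% without marked clusters. No such share is given for the other settings or for the alternatives by age, so those counts stand without a background. *Atf3* by age turned to -0.015 without marked clusters (and without marked and mitochondria-rich clusters). *Egr1* by organ turned to -0.040 with reduced totals, -0.084 with equal weights, -0.0072 from deposited means, -0.75 without marked clusters, and -0.74 without cluster 8 or without marked and mitochondria-rich clusters. *Jund* by organ turned to -0.052 without marked clusters, -0.048 without cluster 8 and -0.041 without marked and mitochondria-rich clusters, and *Jun* by organ to -0.058 under the depth limits. The highest cluster median in 12W spleen, 1.15, was 0.80 with reduced totals, and, in cluster 1 in place of 8, 0.64 without mitochondria-rich clusters and 0.69 without marked ones too. In 28W spleen the highest median moved from cluster 11 (0.80) to cluster 3 with reduced totals (0.68), without mitochondria-rich clusters (0.72) and without marked ones too (0.75). In 28W kidney, 2.42 became 2.51 at a pseudocount of 1 CPM, 2.64 with reduced totals, and 0.68 (cluster 9) without marked clusters, with or without mitochondria-rich ones. Of 190 single-gene values under alternatives 12 reversed. The scaling by the median gene ratio sets the median gene ratio, -0.10 by age and 0.08 by organ, to 0. The cause of these changes was not tested. The settings without cluster 8, without marked and mitochondria-rich clusters together, with depth limits, the cluster medians without mitochondria-rich clusters, and kidney cluster folds without cluster 8 in the other cells were chosen after seeing the data. With 1 library per group, variation between mice or preparations is unknown.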
